A study of Mus musculus with 16 samples.

Results

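The actin turnover and thymosin genes described here are 10 members chosen by gene symbol, out of 49452 genes listed for each mouse. Most cell types use 7 of them, namely Tmsb4x, Tmsb10, Pfn1, Cfl1, Arpc1b, Arpc2 and Arpc3, and the other 3 are enriched in leukocytes, namely Capg, Lcp1 and Cotl1. The RNA came from tdTomato-positive lung cells sorted from 16 mice, 4 in each of 4 groups, and each mouse gave 1 library. A tamoxifen-inducible Cre (CreERT2) driven by the Acta2 promoter or by the Pdgfra promoter switched on a floxed tdTomato reporter, giving the Acta2-tdT and Pdgfra-tdT lines. All 16 mice carried the reporter and a Cre transgene, received tamoxifen and were 11 weeks old. Each line was given saline (mice 1 to 4) or bleomycin (mice 5 to 8), a drug that injures the lung and is followed by fibrosis, and cells were taken on day 14. Acta2-tdT mice ate tamoxifen food (400 mg/kg) from day 5 after the agent, whereas Pdgfra-tdT mice had 5 intraperitoneal injections of 3 mg at 6 weeks of age, before the agent. The lines therefore differ in the time and route of labelling as well as in the promoter, and these cannot be told apart. The label marks cells in which the promoter was active when tamoxifen was present, and it persists after the promoter is switched off.

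Actin filaments grow from a pool of monomers and are taken apart again, and this cycle drives cell movement, division and contraction. Thymosin beta-4 (Tmsb4x) and thymosin beta-10 (Tmsb10) hold monomers in reserve, profilin (Pfn1) delivers them to growing filament ends, cofilin (Cfl1) severs old filaments, and the Arp2/3 complex (Arpc1b, Arpc2 and Arpc3 are subunits) starts new branches. Capg caps filament ends, L-plastin (Lcp1) bundles filaments and coactosin-like protein (Cotl1) binds filaments. These last genes are prominent in macrophages and other leukocytes, which are abundant in lung.

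On GRCm38 the thymosins lie on the minus strand, Tmsb4x at chrX:167207093-167209315 and Tmsb10 at chr6:72957347-72958748. Capg (chr6:72544391-72562983) and Lcp1 (chr14:75131101-75230842) lie on the plus strand, and Cotl1 (chr8:119809222-119840544) on the minus strand. All 10 are annotated as protein coding, and each had 1 entry per mouse. The thymosin coding sequences are shown because their ratio is used below. They come from the GENCODE vM21 transcripts Tmsb4x-201 and Tmsb10-201, and capitals mark the bases at which they differ.
Tmsb4x: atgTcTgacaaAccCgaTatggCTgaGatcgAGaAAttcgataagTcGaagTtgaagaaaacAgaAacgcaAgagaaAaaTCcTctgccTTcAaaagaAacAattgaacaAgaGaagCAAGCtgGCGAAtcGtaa
Tmsb10: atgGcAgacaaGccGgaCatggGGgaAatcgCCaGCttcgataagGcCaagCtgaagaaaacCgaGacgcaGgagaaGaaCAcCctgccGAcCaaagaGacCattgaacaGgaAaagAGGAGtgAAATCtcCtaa
The sequences have the same length of 135 bases and match at 95 positions (70.4%), with 40 differing positions spread along them. By the criterion used here they are not near-identical. Tmsb10, in contrast, has 6 near-identical genes in the files, 5 of them pseudogenes, defined by at least 90% identity over at least 70% of its coding sequence. Cfl1 has 3 such pseudogenes and Arpc1b and Lcp1 have 1 each, so that these members are uncertain where few reads were present. The summed FPKM of the copies reached 192% of Cfl1 and 121% of Tmsb10 in Pdgfra-tdT saline mice and 90.6% and 55.4% in Acta2-tdT saline mice, but at most 0.07% and 4.86% in Acta2-tdT bleomycin mice. In Pdgfra-tdT bleomycin mice they reached 42.9% of Cfl1 and 23.1% of Tmsb10. Copies of Lcp1 reached 46.9% under saline and 12.7% under bleomycin in the Pdgfra-tdT line, but 0% in Acta2-tdT bleomycin mice. Comparisons of these 3 genes against the saline mice or between the lines, including the interaction, carry this uncertainty. The reads were not stranded, and exons of Cfl1, Arpc1b and Lcp1 overlap a gene on the other strand.

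Values are FPKM, fragments counted relative to transcript length and to all mapped fragments, which allow levels of different genes to be compared. They do not give the number of reads, so the depth behind each value is unknown. The interval that Cufflinks gives around a value spanned 7.97% to 23.1% of the value for Tmsb4x. For Cotl1 it spanned at least 83.5% in the 11 mice outside the Acta2-tdT bleomycin group with a value above 0. The FPKM of all nuclear protein-coding genes summed to 28512 to 59840 in 11 of the mice and to 231058 to 463127 in the 4 Acta2-tdT bleomycin mice, with 137952 in Pdgfra-tdT bleomycin mouse 5. The tests on the members are given on the deposited values and again after scaling every mouse to the same nuclear protein-coding sum (49122.5), called scaled FPKM. In bulk samples, fewer cells of a type and less RNA per cell cannot be told apart.

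The sorted cells were checked against marker genes. Acta2, which encodes smooth muscle actin, was at 139 to 314 FPKM in Acta2-tdT saline mice and 1229 to 3211 in Acta2-tdT bleomycin mice, and at 2.59 to 11.0 and 0.831 to 19.4 in the matching Pdgfra-tdT groups. Pdgfra itself was at 2.14 to 3.82 FPKM in Pdgfra-tdT saline mice, above 0.273 to 0.562 in Acta2-tdT saline mice, but under bleomycin it was at 0.977 to 2.45 in Pdgfra-tdT and 2.49 to 11.9 in Acta2-tdT mice. On scaled FPKM these bleomycin groups overlapped, at 0.873, 1.35, 2.33 and 1.68 in Pdgfra-tdT and 1.24, 0.529, 1.02 and 1.26 in Acta2-tdT mice, and the order of their medians turned. The 12 mesenchymal markers summed to 4.41 to 185 FPKM in Pdgfra-tdT bleomycin mice, and 0 to 9 of the 12 reached 1 FPKM, so these libraries are named by line only. The 18 leukocyte markers summed to 892 to 1692 FPKM under saline and 5909 to 9117 under bleomycin in the Acta2-tdT line, and to 61.0 to 148 and 415 to 3540.2 in the Pdgfra-tdT line. Between 0 and 3 of them were listed at 0 in a mouse, always among the lymphoid genes Cd3e, Cd79a and Nkg7. Pdgfra-tdT saline mouse 3 stood apart, with 331 FPKM over the 7 endothelial markers against 3.86 to 9.79 in the other Pdgfra-tdT saline mice. Pdgfra-tdT bleomycin mouse 5 also carried these markers, at 903 FPKM, against 4.05 to 93.2 in mice 6 to 8.

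The thymosins had the highest mean FPKM of the members over the 16 mice. Tmsb4x was at 246, 363, 612 and 533 FPKM in the 4 Acta2-tdT saline mice and at 3899.9, 3002, 4367 and 4954 in the 4 Acta2-tdT bleomycin mice. It was at 59.5, 31.8, 349.6 and 41.0 in Pdgfra-tdT saline and 1189, 590.3, 415 and 60.7 in Pdgfra-tdT bleomycin mice. All Acta2-tdT bleomycin mice were above all others, Pdgfra-tdT saline mouse 3 was far above its group, and Pdgfra-tdT bleomycin mouse 8 lay among the saline mice. In the 8 Acta2-tdT mice Tmsb4x ranked between 4 and 8 among nuclear protein-coding genes. Tmsb10 was at 24.0, 25.3, 42.6 and 35.0 FPKM in Acta2-tdT saline and 1008, 556, 1201 and 1217 in Acta2-tdT bleomycin mice. It was at 8.23, 9.24, 129 and 9.33 in Pdgfra-tdT saline and 502, 129, 72.2 and 14.2 in Pdgfra-tdT bleomycin mice. The same mice stood apart as for Tmsb4x, and the lowest Acta2-tdT bleomycin mouse was above every mouse of the other groups.

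Profilin and cofilin were likewise highest in Acta2-tdT bleomycin mice. Pfn1 was at 22.4, 15.5, 29.0 and 40.2 FPKM in Acta2-tdT saline and 709, 389.6, 912 and 1019 in Acta2-tdT bleomycin mice. Pdgfra-tdT mice were at 3.73, 3.26, 57.4 and 5.31 under saline and 153, 49.2, 26.5 and 4.32 under bleomycin. No Acta2-tdT bleomycin mouse overlapped another group. Cfl1 was at 3.54, 2.7, 5.43 and 9.26 FPKM in Acta2-tdT saline and 131, 78.4, 343 and 249 in Acta2-tdT bleomycin mice. In the Pdgfra-tdT line it was at 0.632, 0.613, 13.6 and 1.63 under saline and 49.4, 10.2, 7.37 and 1.06 under bleomycin, below 1 FPKM in 2 saline mice.

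Of the 3 Arp2/3 subunits among the members, Arpc1b had the highest mean FPKM over the 16 mice. It was at 20.4, 10.9, 22.7 and 40.0 FPKM in Acta2-tdT saline and 427, 368, 1077 and 865 in Acta2-tdT bleomycin mice. Its values in Pdgfra-tdT mice were 3.05, 2.14, 34.2 and 6.77 under saline and 106, 45.9, 42.0 and 5.33 under bleomycin. Arpc2 was at 6.59 to 14.0 FPKM under saline and 67.8 to 163 under bleomycin in the Acta2-tdT line, and at 1.24 to 9.28 and 1.15 to 38.8 in the Pdgfra-tdT line. Arpc3 was at 7.87 to 17.9 and 106 to 232 FPKM in the Acta2-tdT groups, and at 1.28 to 44.5 and 3.76 to 136 in the Pdgfra-tdT groups. For Arpc3, Pdgfra-tdT bleomycin mouse 5 lay within the Acta2-tdT bleomycin range.

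Among the leukocyte-enriched members Capg was the highest in mean FPKM and Cotl1 the lowest. Capg was at 5.13, 3.63, 8.2 and 12.3 FPKM in Acta2-tdT saline and 173, 125, 359 and 334 in Acta2-tdT bleomycin mice. In the Pdgfra-tdT line it was at 1.18, 1.06, 0.798 and 2.66 under saline and 45.1, 20.7, 17.8 and 2.44 under bleomycin. Pdgfra-tdT saline mouse 3, the highest of its group for the 7 general members and Lcp1, was the lowest for Capg. Lcp1 was at 2.05, 2.5, 2.29 and 4.01 FPKM in Acta2-tdT saline and 38.5, 31.9, 78.3 and 42.5 in Acta2-tdT bleomycin mice. In Pdgfra-tdT mice Lcp1 was at 0.778, 0.497, 3.42 and 0.772 under saline and 12.6, 5.37, 4.06 and 0.777 under bleomycin. Cotl1 was below 1 FPKM in all 8 saline mice, and was at 6.31, 8.08, 27.7 and 15.0 in Acta2-tdT bleomycin and 1.2, 2.17, 0.746 and 0.10 in Pdgfra-tdT bleomycin mice. It was listed at 0 in Pdgfra-tdT saline mouse 2.

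**Figure D1:**
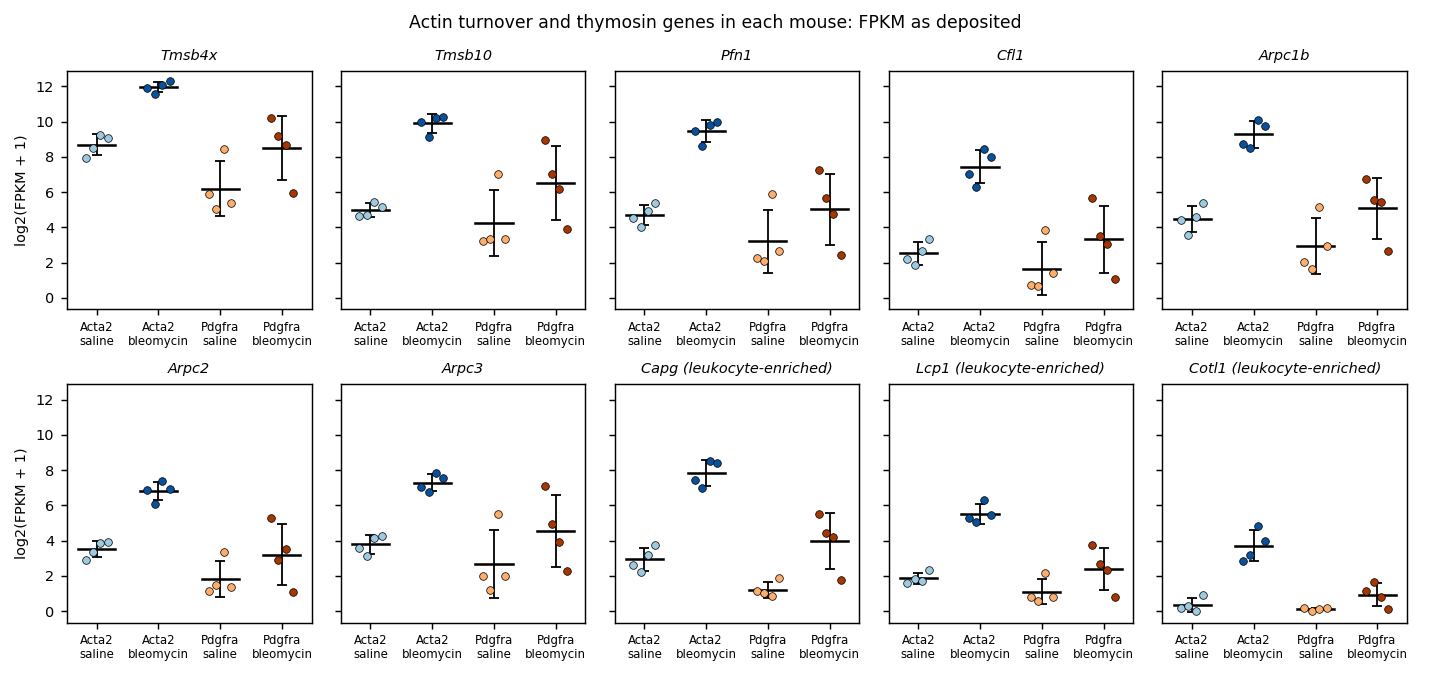
Each panel plots log2(FPKM + 1) of 1 member on the deposited values, with a point per mouse, a horizontal line at the group mean and bars of 1 SD (n = 4). Acta2-tdT bleomycin mice are the highest group in every panel, and in the Pdgfra-tdT saline group mouse 3 lies above the other mice except for Capg and Cotl1.

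To ask which members differed in Acta2-tdT cells after bleomycin, the 8 mice were compared by limma on log2(FPKM + 1), with Benjamini-Hochberg adjustment over 12523 genes. All 10 members were higher after bleomycin, and the groups did not overlap for any of them. Of all genes tested 70.4% were called higher and 67.8% were higher without overlap, so the count on deposited values says little about the members. The largest differences were in Cfl1 (log2 difference 4.91, SE 0.54, limma adjusted p = 2.3e-05), Tmsb10 (4.90, SE 0.41, 1.2e-05) and Capg (4.89, SE 0.50, 1.8e-05). The smallest were in Tmsb4x (3.27, SE 0.37, 2.5e-05) and Arpc2 (3.31, SE 0.41, 4.3e-05). The median difference was 4.76 over the 7 general members and 3.66 over the 3 leukocyte-enriched ones, beside 1.76 over all genes tested. This order turned with a pseudocount of 0.1, where Pfn1 (4.81) was the median of the general and Capg (5.08) that of the leukocyte-enriched members. Cotl1 passed the filter on low values (1 FPKM or more in at least 4 mice) only through the bleomycin mice and so had to differ, which leaves 9 of 9 other members called.

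On scaled FPKM, 7 of the 10 members were higher after bleomycin in Acta2-tdT cells, beside 23.9% of all genes tested. They were Cfl1 (log2 difference 2.01, SE 0.32, limma adjusted p = 0.00056), Capg (1.96, SE 0.29, 0.00032), Tmsb10 (1.92, SE 0.27, 0.00024), Arpc1b (1.83, SE 0.34, 0.00137), Pfn1 (1.79, SE 0.28, 0.00044), Cotl1 (1.08, SE 0.24, 0.0042) and Lcp1 (0.90, SE 0.23, 0.00838). Cotl1 entered through the bleomycin mice here too, which leaves 6 of 9. The other members did not pass. Tmsb4x differed by 0.28 (SE 0.29, limma adjusted p = 0.43), Arpc2 by 0.41 (SE 0.25, 0.193) and Arpc3 by 0.58 (SE 0.25, 0.0744). Scaled Tmsb4x was at 328, 501, 619 and 453 under saline and 602, 638, 492 and 525 under bleomycin, and the groups overlapped. Scaled Tmsb10 was at 32.0, 35.0, 43.1 and 29.7 under saline and 156, 118, 135 and 129 under bleomycin, with a wide gap between the groups. The groups did not overlap for 8 members, beside 21.5% of all genes tested, the exceptions being Tmsb4x and Arpc2. The scaling moved the median difference of all genes from 1.76 to -0.02, and the share of called genes that were higher from 81.2% to 42.3%. With scaling by the median of ratios instead, which left a median difference of 0.77 and 71.7% of calls higher, all 10 members were higher, beside 59.6% of genes, by 1.85 to 3.53.

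Leukocyte markers were set beside these differences. In Acta2-tdT cells the 15 leukocyte markers that could be tested of 18 were all higher after bleomycin on deposited values (median 2.88), where 70.4% of all genes were. Some of the 15 passed the filter only with the bleomycin mice, since an Acta2-tdT saline mouse had 11 of the 18 at 1 FPKM or more. On scaled FPKM 6 were higher and 2 lower (median 0.35), beside 23.9% and 32.6% of all genes. The summed scaled FPKM of the 18 markers was 1231 to 1712 under saline and 662 to 1256 under bleomycin, with a lower median under bleomycin. On scaled FPKM the pan-leukocyte marker Ptprc, which encodes CD45, differed by -0.13 (SE 0.23, limma adjusted p = 0.644) and Tyrobp by -0.28 (0.462), the macrophage marker Cd68 rose by 2.02 (0.0121), and the neutrophil gene S100a8 fell by 1.72 (0.0226), while it rose by 1.27 (0.0327) on deposited values. Capg relative to Ptprc was at 0.96, 1.43, 1.63 and 2.04 on the log2 scale in Acta2-tdT saline and 3.81, 3.12, 3.77 and 4.56 in Acta2-tdT bleomycin mice, with no overlap. Lcp1 relative to Ptprc was at -0.36, 0.89, -0.20 and 0.43 and 1.65, 1.14, 1.57 and 1.59 in the same groups, again without overlap. In the Pdgfra-tdT line Capg relative to Ptprc was at 0.37 to 1.42 under saline and 1.54 to 4.15 under bleomycin, also without overlap. Lcp1 relative to Ptprc overlapped there, at -0.71 to 3.26 and -0.11 to 2.3. Ptprc was below 1 FPKM in every Pdgfra-tdT saline mouse. In Acta2-tdT cells markers of other cell types moved on scaled FPKM as well. The 12 mesenchymal markers summed to 251 to 358 under saline and 537 to 775 under bleomycin, without overlap, with 7 higher and 1 lower (median 0.99). The 7 endothelial markers summed to 5.97 to 10.7 under saline and 2.79 to 4.06 under bleomycin, also without overlap, but this direction turned with the scaling, since on deposited values the sums were 5.90 to 12.6 and 19.1 to 26.3. The part of these cell types in the change of the members was not tested.

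Ratios of 2 genes within a mouse do not depend on the scaling. Tmsb10 was at 9.76, 6.98, 6.97 and 6.56% of Tmsb4x in Acta2-tdT saline mice and at 25.8, 18.5, 27.5 and 24.6% in Acta2-tdT bleomycin mice. In the Pdgfra-tdT line it was at 13.8, 29.0, 36.8 and 22.8% under saline and 42.2, 21.8, 17.4 and 23.4% under bleomycin. Every Acta2-tdT saline mouse was therefore below every mouse of the other groups, and the Pdgfra-tdT groups overlapped with each other and with Acta2-tdT bleomycin. With the near-identical copies added to Tmsb10, an alternative chosen after seeing the data, the Acta2-tdT saline mice were at 9.84, 10.8, 6.97 and 9.68% and the Acta2-tdT bleomycin mice at 27.1, 19.0, 27.8 and 25.2%, and no overlap arose. Tmsb4x was above beta-actin (Actb) in Acta2-tdT saline mice, at 0.72, 1.31, 1.94 and 0.93 as a log2 ratio, and near it in Acta2-tdT bleomycin mice, at 0.02, -0.12, -0.33 and -0.65. Pdgfra-tdT mice were at 1.11, 0.57, 0.23 and 0.16 under saline and -0.01, 1.07, 0.82 and 1.41 under bleomycin, with overlap and with the higher median under bleomycin. Pfn1 kept nearly the same ratio to Actb, with group medians of -2.77 under saline and -2.77 under bleomycin in the Acta2-tdT line, -2.75 and -2.75 in the Pdgfra-tdT line, and values over all mice between -3.24 and -2.38. These ratios were chosen after earlier results were known and were not tested.

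**Figure D2:**
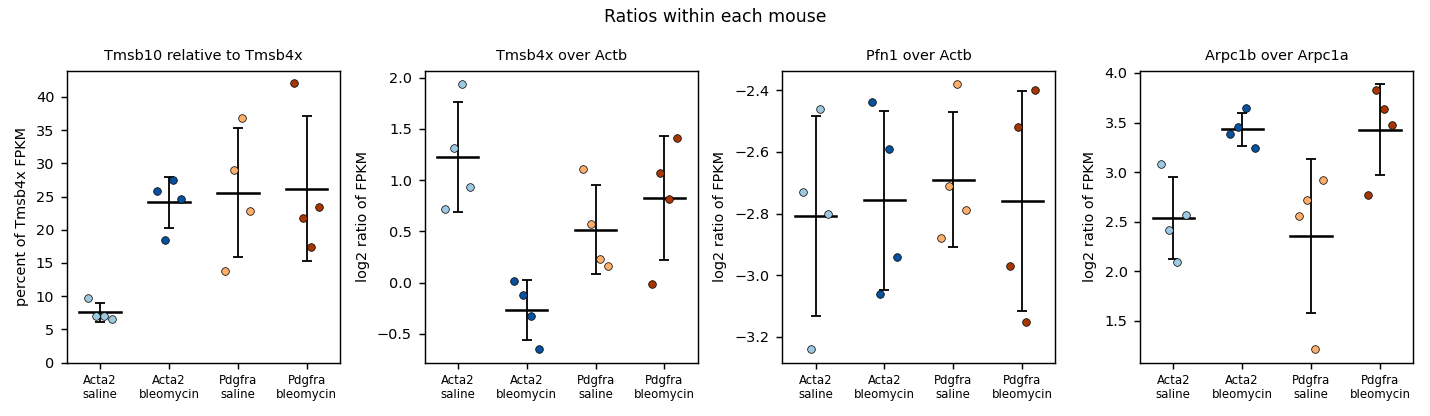
Ratios of FPKM within each mouse, with a point per mouse, the group mean and bars of 1 SD (n = 4), the first panel in percent on an axis from 0 and the others as log2 ratios. Tmsb10 relative to Tmsb4x is lowest in the 4 Acta2-tdT saline mice, and Pfn1 relative to Actb lies at about the same level in the 4 groups.

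Ratios between subunits of the Arp2/3 complex also separated the Acta2-tdT groups. Arpc1b relative to Arpc2 was at 1.63, 0.24, 0.72 and 1.51 on the log2 scale in Acta2-tdT saline mice and 1.85, 2.44, 2.72 and 2.81 in Acta2-tdT bleomycin mice. Relative to Arpc3 it was at 0.88, 0.46, 0.42 and 1.16 and 1.72, 1.79, 2.22 and 2.23, and neither pair of groups overlapped. Arpc1a encodes the other form of the subunit that Arpc1b encodes. Arpc1b relative to Arpc1a was at 3.08, 2.41, 2.09 and 2.57 and 3.38, 3.45, 3.65 and 3.24, so that Arpc1b was the more abundant form in all 8 Acta2-tdT mice, with higher ratios after bleomycin. Pdgfra-tdT mice were at 2.56, 2.72, 1.21 and 2.92 under saline and 2.77, 3.83, 3.64 and 3.47 under bleomycin, with a higher mean under bleomycin too and with overlap. In Acta2-tdT mice Cfl1 relative to its paralogue destrin (Dstn) was at -2.13, -2.55, -2.81 and -2.11 under saline and -0.41, -1.05, 0.36 and -0.27 under bleomycin. The Pdgfra-tdT groups overlapped, at -1.17 to 0.63 and -0.51 to 0.04. On scaled FPKM in Acta2-tdT cells after bleomycin, Dstn differed by 0.15 (SE 0.30, limma adjusted p = 0.691) while Cfl1 rose. Pfn2, the paralogue of Pfn1, fell there by 1.14 on the scaled log2 scale (SE 0.16, limma adjusted p = 0.00022), whereas on deposited values it rose by 0.83 (SE 0.31, limma adjusted p = 0.0265).

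The ratio of the plastins did not separate the Acta2-tdT groups. Lcp1 relative to Pls3, the plastin of non-leukocyte cells, was at 0.44, 0.98, 0.06 and 0.44 in Acta2-tdT saline and -0.46, -0.36, 0.48 and -0.71 in Acta2-tdT bleomycin mice, and these groups overlapped. In Pdgfra-tdT mice it was at 2.07, 0.34, 0.30 and 0.82 under saline and 1.39, 3.32, 3.39 and 3.33 under bleomycin, with overlap. The Pdgfra-tdT bleomycin mice were above all Acta2-tdT mice, but Pls3 was below 1 FPKM in 3 of them, at 0.0773 to 4.78 FPKM in all. Pls3 was also below 1 FPKM in Pdgfra-tdT saline mice 1, 2 and 4. Pls3 itself rose by 1.47 on the scaled log2 scale (SE 0.19, limma adjusted p = 0.00013) in Acta2-tdT cells after bleomycin. In bleomycin-treated mice scaled Pls3 was higher in the Acta2-tdT than in the Pdgfra-tdT line by 2.41 (SE 0.35, limma adjusted p = 0.00183), having passed the filter through the Acta2-tdT mice, while Lcp1 differed by 0.67 (SE 0.44, limma adjusted p = 0.255).

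Among 53 other genes of actin turnover, 44 could be tested in Acta2-tdT cells and all 44 were higher after bleomycin on deposited values (median 2.73), beside 70.4% of all genes (median 1.76). At most 20 of the 53 reached 1 FPKM in all 4 Acta2-tdT saline mice. Most of the 44 therefore passed the filter only with the bleomycin mice. On scaled FPKM 20 were higher and 4 lower (median 0.44, against -0.02 over all genes), beside 23.9% of genes called higher and 32.6% called lower. The 4 that were lower on scaled FPKM were higher on deposited values. Of the other Arp2/3 subunits 4 of 6 were higher, among them Arpc5 (1.64, limma adjusted p = 0.00026) and Arpc4 (1.55, 0.00248), and Actr2 differed by -0.11 (0.57). Of the monomer-binding and severing genes 2 of 10 were higher, namely Wdr1, a cofactor of cofilin (2.27, limma adjusted p = 2.4e-05), and Twf1 (0.59, 0.00107), and Pfn2 and Gmfg were lower. Of the capping, bundling and filament-binding genes 9 of 13 were higher, among them Coro1b (1.61, limma adjusted p = 0.00165) and Capzb (1.23, 0.0076), and Svil was lower. The leukocyte coronin Coro1a, in that list, differed by 0.62 (limma adjusted p = 0.127). Of the nucleation regulators 3 of 11 were higher, including Brk1 (0.97, limma adjusted p = 0.0193). Of the kinases and phosphatases that act on cofilin 2 of 4 were higher, Limk1 and Limk2, and Ssh2 was lower. The 4 tested passed the filter only with the bleomycin mice. Of the actin genes themselves, Actb rose by 1.77 (SE 0.27, limma adjusted p = 0.00038) and Actg1 by 1.59 (0.00078) on scaled FPKM, and Acta2 differed by 0.14 (0.693).

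In the Pdgfra-tdT line no member passed the test after bleomycin. Of the 10 members 9 were tested, since Cotl1 did not pass the filter, and limma called 0 of them higher, beside 0.0275% of all 7275 genes tested. An unadjusted p under 0.05 was reached by 312 of these genes. Capg had the largest difference, with a log2 difference of 2.77 (SE 0.78, limma adjusted p = 0.755), and the other members tested differed by 1.31 to 2.32 with SE of 0.66 to 1.26. On deposited values every member overlapped between the groups, while 1.43% of genes tested were higher without overlap. On scaled FPKM, where 0 members were called as well, Capg was at 1.94, 1.73, 0.655 and 3.62 under saline and 16.1, 20.5, 20.5 and 4.2 under bleomycin, without overlap, beside 1.31% of all genes tested. The 18 leukocyte markers moved the same way on this scale, with sums of 50.1 to 243 under saline and 716 to 1947 under bleomycin, also without overlap, and the 8 that were tested had a median difference of 2.54 (3.03 on deposited values) with 0 called. Their part in the difference of Capg was not tested. Capg was at 1 FPKM or more in 3 saline mice, Cfl1 in 2 and Lcp1 in 1, so that these members passed the filter only with the bleomycin mice. Without Pdgfra-tdT bleomycin mouse 8, limma called 1 member, Capg (3.51, limma adjusted p = 0.0294), beside 0.639% of genes, and this call rests on the same filter. Of the 53 other genes 19 were tested and 0 were called.

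In bleomycin-treated mice the lines were compared directly. On deposited values limma called all 10 members higher in the Acta2-tdT line, beside 71% of all 11995 genes tested. The differences ranged from 2.74 for Arpc3 (SE 1.03, limma adjusted p = 0.0283) to 4.45 for Pfn1 (SE 1.07, 0.00301), beside a median of 1.81 over all genes. Lcp1 and Cotl1 passed the filter through the Acta2-tdT mice. The lines did not overlap for 9 members, beside 56.8% of genes, the exception being Arpc3. Arpc3 was not called without Acta2-tdT bleomycin mouse 5, 7 or 8 or Pdgfra-tdT bleomycin mouse 7 (limma adjusted p from 0.052 to 0.0775). On scaled FPKM 0 of the 10 members were called, beside 15.8% of genes, where an unadjusted p under 0.05 was reached by 5453 genes. Without Pdgfra-tdT bleomycin mouse 5 this count was 2, beside 29.7% of genes, and without mouse 8 it was 1, beside 14.1%, so neither share was above the background. The median over all genes moved to 0.14, and the share of called genes that were higher moved from 89.2% to 47.4%. By the median of ratios, with 76.6% of calls higher, 8 of the 10 were called, beside 48.4% of genes, the exceptions being Tmsb10 (1.97, limma adjusted p = 0.0777) and Arpc3 (1.37, 0.174). Scaled Pfn1 was at 109, 82.8, 103 and 108 in Acta2-tdT and 54.6, 48.6, 30.6 and 7.45 in Pdgfra-tdT mice, without overlap, and differed by 1.79 (SE 0.72, limma adjusted p = 0.0787). Arpc1b and Capg also did not overlap on this scale, 3 of 10 members beside 18.9% of genes, and scaled Arpc3 differed by 0.13 (SE 0.65, limma adjusted p = 0.886). Of the 12 mesenchymal markers 11 were higher in Acta2-tdT cells on scaled FPKM (median 3.68), where the markers passed the filter only with the Acta2-tdT mice, since 0 to 9 of them reached 1 FPKM in a Pdgfra-tdT mouse. Of 15 leukocyte markers tested 3 were higher and 1 lower (median 0.36), and some of the 15 passed the filter only with the Acta2-tdT mice. Of 7 endothelial markers 6 were tested, and 5 of them were lower in Acta2-tdT cells (median -1.61), while on deposited values 0 were called (median -1.02). Their part in the difference of the members was not tested. Of the 53 other genes of actin turnover 45 were tested, and 44 were higher on deposited and 8 on scaled FPKM. Those 8 included Pls3, Wdr1, Actr3 and Limk1. Most of the 45 passed the filter only with the Acta2-tdT mice, since far fewer of the 53 could be tested within the Pdgfra-tdT line.

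**Figure D3:**
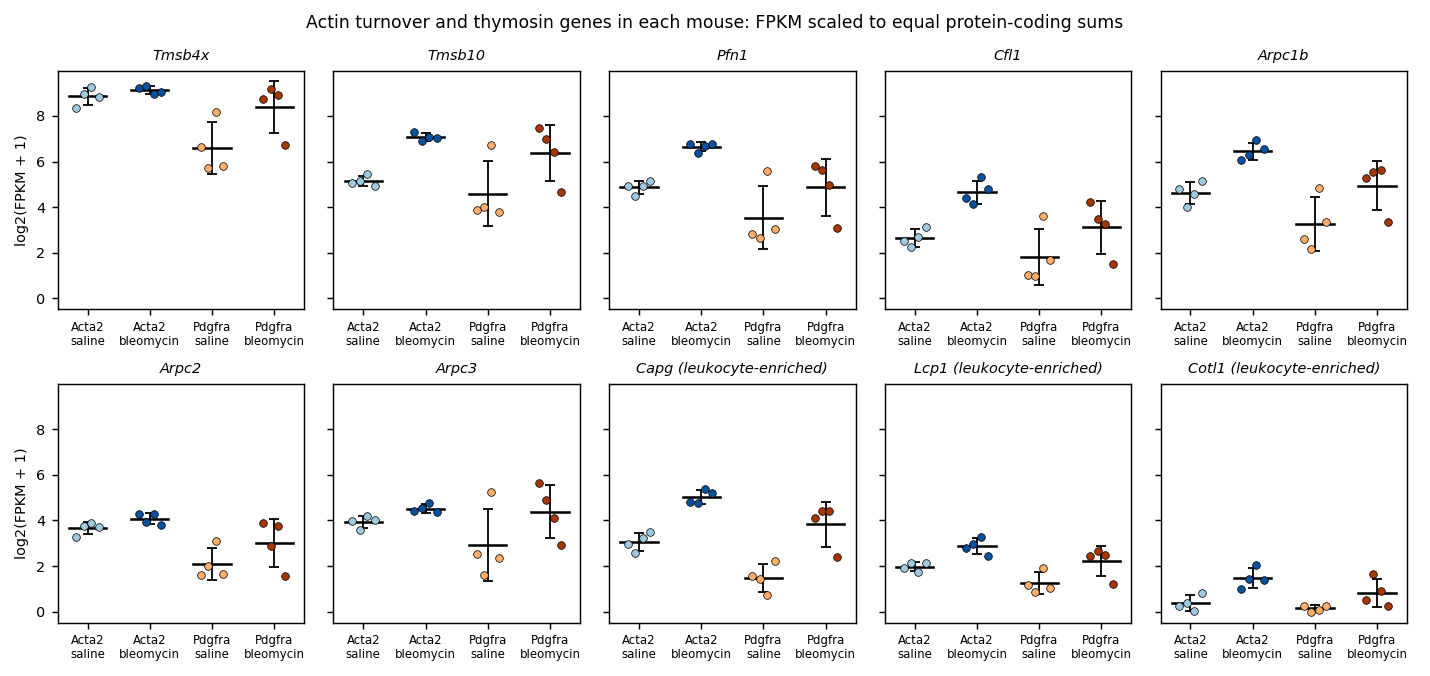
Each panel plots log2(FPKM + 1) of 1 member after every mouse was scaled to the same nuclear protein-coding sum, with a point per mouse, the group mean and bars of 1 SD (n = 4). The Acta2-tdT groups overlap for Tmsb4x and are apart for Tmsb10, and Pdgfra-tdT bleomycin mice 5 to 7 lie near or within the range of Acta2-tdT bleomycin mice for several members.

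Under saline, limma called 0 of the 9 members tested between the lines, beside 2.72% of all 8153 genes called higher in Acta2-tdT cells. An unadjusted p under 0.05 was reached by 1116 genes. Cfl1, Capg and Lcp1 passed the filter through the Acta2-tdT mice. Differences on deposited values ran from 0.76 for Tmsb10 (SE 0.87, limma adjusted p = 0.757) to 2.49 for Tmsb4x (SE 0.76, 0.17), and Capg, at 1.72 (SE 0.40, 0.0745), was the member without overlap, beside 6.56% of genes. On scaled FPKM 0 of 9 were called, beside 3.2% of genes, and Tmsb4x, Arpc2 and Capg did not overlap, beside 7.75%. Without Pdgfra-tdT saline mouse 3, limma called 9 of 9 members higher in Acta2-tdT cells, beside 24.4% of genes, with Tmsb4x at 3.24 (limma adjusted p = 0.00359) and Lcp1 at 1.12 (0.00901). On scaled FPKM without that mouse 9 of 9 were also called, beside 23.5% of genes. Leaving aside Cfl1, Capg and Lcp1, which entered through the Acta2-tdT mice, this is 6 of 6 on either scale, and Lcp1 was below 1 FPKM in the 3 Pdgfra-tdT mice that remained. Leukocyte markers differed in the same direction over all 8 mice, with 6 of 11 tested higher in Acta2-tdT cells on deposited and 4 on scaled FPKM, and scaled sums of 1231 to 1712 against 50.1 to 243, without overlap. Several of the 11 passed the filter only with the Acta2-tdT mice, since 6 to 8 leukocyte markers reached 1 FPKM in a Pdgfra-tdT mouse. Of the 12 mesenchymal markers 7 were higher and 1 lower on deposited values, and 6 and 1 on scaled FPKM, and most of them passed the filter through the Acta2-tdT mice, since 3 to 8 reached 1 FPKM in a Pdgfra-tdT mouse. Their part in the difference of the members was not tested. With any other mouse left out, 0 were called on deposited values. Of the 53 other genes of actin turnover 20 were tested, and 3 were higher on deposited and 3 on scaled FPKM.

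The interaction of line and bleomycin asks whether the bleomycin effect differed between the lines, over all 16 mice. On deposited values limma called 2 of 10 members, beside 36.6% of all 16605 genes called higher. They were Lcp1 (log2 difference of the effects 2.35, SE 0.78, limma adjusted p = 0.0278) and Cotl1 (2.53, SE 0.57, 0.00351), which passed the filter through the Acta2-tdT bleomycin mice. On scaled FPKM 0 were called, beside 1.33% of genes, Lcp1 being at -0.06 (SE 0.52, limma adjusted p = 0.961) and Cotl1 at 0.40 (SE 0.41, 0.615), and the share of called genes that were higher moved from 92% to 59.9%. By the median of ratios 0 were called, beside 11.3% of genes, with 82.6% of calls higher, and the sign of Tmsb4x also turned there (-0.19). Tmsb4x had an interaction of 0.95 on deposited values (SE 1.18, limma adjusted p = 0.528) and -1.52 on scaled FPKM (SE 0.86, 0.355). Without Pdgfra-tdT bleomycin mouse 5 the count on deposited values was 8 of 10, beside 49.6% of genes. It was 1 without Acta2-tdT saline mouse 1, Acta2-tdT bleomycin mouse 7 or 8, or Pdgfra-tdT saline mouse 3, beside 23.8% to 32.4% of genes. It was 3 without Acta2-tdT bleomycin mouse 6 or Pdgfra-tdT saline mouse 1 or 2, beside 35% to 36% of genes. Of the 53 other genes of actin turnover 46 were tested, and 26 were higher on deposited and 0 on scaled FPKM. Of the markers, 6 of 15 leukocyte and 10 of 12 mesenchymal genes were higher on deposited values, and on scaled FPKM 0 leukocyte genes were called while 4 mesenchymal genes were higher and 1 was lower. Their part in the interaction was not tested. The comparisons share groups of mice, so their counts are not independent.

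The leukocyte-enriched members were set against the general ones within each mouse, as the mean log2(FPKM + 1) of Capg, Lcp1 and Cotl1 minus that of the 7 general members. The difference was -2.85, -2.74, -3.34 and -2.88 in Acta2-tdT saline and -3.52, -3.07, -2.86 and -3.30 in Acta2-tdT bleomycin mice. Pdgfra-tdT mice had values of -1.75, -1.68, -4.57 and -1.78 under saline and -3.85, -2.61, -2.63 and -1.85 under bleomycin. The Acta2-tdT groups overlapped, with means of -2.95 (SD 0.27, n = 4) and -3.19 (SD 0.29, n = 4), and on scaled FPKM with means of -3.01 and -2.96. The order of saline and bleomycin turned with the pseudocount, since with 0.1 in place of 1 the means were -3.73 and -3.24, and the groups still overlapped. Pdgfra-tdT saline mouse 3 had the largest gap of all 16 mice, with low Capg beside high general members, and its leukocyte markers summed to 61.0 FPKM, the lowest sum of all. The means in the Pdgfra-tdT line were -2.44 (SD 1.42, n = 4) under saline and -2.73 (SD 0.83, n = 4) under bleomycin, and with a pseudocount of 0.1 their order turned as well (-3.56 and -3.19). This turn rests on Pdgfra-tdT saline mouse 3, at -5.82 with a pseudocount of 0.1. The other saline mice of that line were at -2.68, -3.01 and -2.71, each above the bleomycin mean. The direction of the difference between saline and bleomycin is therefore not settled in either line. The 10 members together took 0.927 to 1.55% of protein-coding FPKM under saline and 1.94 to 2.09% under bleomycin in the Acta2-tdT line, and 0.172 to 1.07% and 0.329 to 1.79% in the Pdgfra-tdT line. The Acta2-tdT bleomycin range was the narrowest and the highest.

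**Figure D4:**
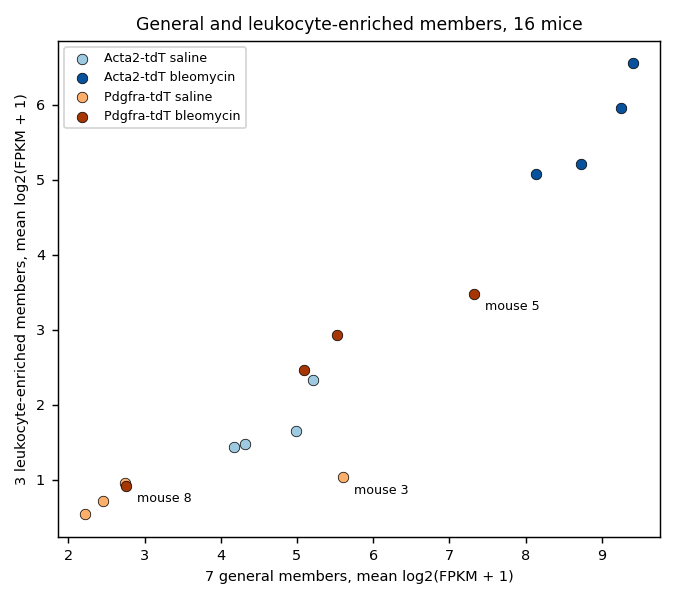
Mean log2(FPKM + 1) of the 3 leukocyte-enriched members against that of the 7 general members, with a point for each of 16 mice coloured by group. Most mice lie along a diagonal band, and Pdgfra-tdT saline mouse 3 lies below it.

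Genes whose pattern over the 16 mice was most like a member were found by the root mean square difference of log2(scaled FPKM + 1), each gene centred on its mean, among 10108 genes. For Tmsb4x they were Ndufa2 (0.25), Fau (0.34) and Atpif1 (0.35), and the nearest other member, Arpc2, ranked 126 (0.54). For Lcp1 they were Snx2 (0.23), Ei24 (0.26) and Srp72 (0.28), and the nearest other member, Cotl1, ranked 85 (0.38). Tmsb10 ranked 922 for Tmsb4x (0.82). The SD of Tmsb4x over the 16 mice was 1.22 and that of Lcp1 was 0.70 on this scale.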

How the data were processed

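RNA of tdTomato-positive sorted lung cells was amplified by SmartSeq2, and per the labels the authors aligned reads with TopHat2 2.1.1 and Bowtie2 to mm10 (GRCm38) and computed FPKM per mouse with Cufflinks 2.1.1. The deposited FPKM are normalised to transcript length and to mapped fragments. The annotation release is not given in the sources used here. Entries of a gene were summed per Ensembl identifier, and 15 genes were left out because their Cufflinks status was not OK in some mouse. No columns of other samples were present (0).

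The FPKM of genes at 1 FPKM or more in at least 4 mice of a comparison were tested as log2(FPKM + 1) by limma 3.58.1 in R 4.3.3 (lmFit, eBayes with trend, two-sided), with Benjamini-Hochberg adjustment over all genes tested and a threshold of 0.05. A pseudocount of 1 understates changes of low genes. Pairwise comparisons used the 8 mice of the groups compared, and the interaction used all 16. Scaled FPKM equalise the nuclear protein-coding sum, and a second scaling used the median of ratios over 1071 genes. Other alternatives were a pseudocount of 0.1, no filter, each mouse left out, and the replicate number as a block. Near-identical genes were found with blastn 2.17.0 on GENCODE vM21 transcripts. The fit was tested on simulated data.

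Groups come from the labels. They name no batch, and each mouse is a replicate. All 10 members are named. Other genes come from fixed lists, at most 4 per list by mean FPKM, plus exceptions, marker genes and Pls3, Pfn2, Actr2, Actr3, Twf1, Ptprc and Cd68, which were named after their values were seen. For Tmsb4x and Lcp1 the 3 most similar genes are given. The members and lists were chosen with earlier results of these data known. No 2 mice had identical values.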

Additional observations from a re-analysis of the deposited data

Results flagged for a closer look

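Pdgfra-tdT saline mouse 3 lay far from the other 3 mice of its group for several members. The gap to the nearest mouse, divided by the range of the group, was 0.958 for Tmsb10, 0.85 for Pfn1, 0.845 for Arpc2 and 0.841 for Lcp1, each with this mouse the highest, and 0.964 for the leukocyte-enriched minus general difference, with this mouse the lowest. All 5 exceed Dixon's 95% critical value for 4 samples. They were found among 44 groups of values examined, chance flags about 1 in 20 groups, and the members are not independent of each other. This mouse also carried 7 of 7 endothelial markers at 1 FPKM or more, against 1 of 7 in the other Pdgfra-tdT saline mice. The part of endothelial cells in these values was not tested.

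The bleomycin effect differed between the lines for Lcp1, by 2.35 on the log2 scale (SE 0.78, limma adjusted p = 0.0278), and for Cotl1, by 2.53 (SE 0.57, limma adjusted p = 0.00351), larger in Acta2-tdT cells, beside 36.6% of all genes called higher. Cotl1 was below 1 FPKM in all 8 saline mice and in 2 Pdgfra-tdT bleomycin mice, so it entered the test only through the Acta2-tdT bleomycin mice, where it is high. On scaled FPKM these differences were -0.06 and 0.40 and did not pass. Over all alternatives the adjusted p of Lcp1 ran up to 0.961 and that of Cotl1 up to 0.615.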

How the results depend on the processing

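On scaled FPKM 0 of 10 were called between the lines under bleomycin, against 10 on deposited values, and 0 for the interaction, against 2. For the interaction 0 were also called by the median of ratios and with a pseudocount of 0.1, and 1 without the filter on low values. The sign of the interaction turned on scaled FPKM for Tmsb4x (-1.52), Arpc2 (-0.52), Arpc3 (-0.87), Capg (-0.38) and Lcp1 (-0.06), and by the median of ratios for Tmsb4x (-0.19). The mean leukocyte-enriched minus general difference in Acta2-tdT saline mice moved from -2.95 to -3.73 with a pseudocount of 0.1, and in the other groups it was -3.24 after bleomycin in Acta2-tdT mice, and -3.56 under saline and -3.19 under bleomycin in Pdgfra-tdT mice, which turned the order of saline and bleomycin in both lines. The cause was not tested.

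Leaving out 1 mouse at a time gave 0 to 9 members called between the lines under saline (beside 0.171% to 24.4% of genes), 9 to 10 under bleomycin (62% to 78%), 9 to 10 for bleomycin in Acta2-tdT cells (59.6% to 76.3%), 0 to 1 in Pdgfra-tdT cells (0% to 0.639%) and 1 to 8 for the interaction (23.8% to 49.6%). Under saline the 9 came without Pdgfra-tdT saline mouse 3, where 2141 genes were called against 14 to 100 without another mouse. The count of 9 in Acta2-tdT cells arose because Cotl1 was then not tested. On scaled FPKM the ranges were 0 to 9, 0 to 2, 6 to 7, 0 to 0 and 0 to 0, beside up to 23.5%, 29.7%, 26.8%, 0.171% and 3.06% of genes, an alternative added after seeing the data. The leukocyte-enriched minus general means ran from -3.02 to -2.82 and -3.3 to -3.08 in Acta2-tdT mice under saline and bleomycin, and from -2.7 to -1.74 and -3.03 to -2.36 in Pdgfra-tdT mice.

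Mice of the 2 lines share replicate numbers. In their deviations from the group means, same-numbered mice correlated by -0.31 to 0.16. Saline mice 1 and 3 matched their own number best and no bleomycin mouse did, so this check did not settle whether the numbers pair mice. With the replicate block 0 members were called between the lines under saline and 9 under bleomycin, Arpc3 being lost (adjusted p = 0.0585), and over all genes the calls under saline went from 237 to 36. Without the filter the calls under saline were 59, and those after bleomycin in Pdgfra-tdT cells went from 9 to 2. On scaled FPKM the calls over all genes were 4012, against 9553, between the lines under bleomycin, 7083, against 10848, for bleomycin in Acta2-tdT cells, and 369, against 6605, for the interaction. The interaction had 2270 calls by the median of ratios and 3463 with a pseudocount of 0.1. Read depth is unknown, which limits what can be said of Cotl1 and of other members below 1 FPKM.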
